A study of Mus musculus with 4 samples.

Results

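The genes described here are 41 interferon-stimulated genes of the mouse, taken by name: every probe that carries the symbol of one of them, or an earlier symbol of the same gene, was read, and the Oas, Gbp and Irg, Schlafen, Irf, Stat and Ly6 families were left out of the set. All 41 had at least 1 probe that could be tested, among 19154 tested genes, and together they had 74 of the 41174 probes on the array. The in vitro-derived cells were grown in culture: 100000 Lin-Sca1+CD117+ bone marrow cells of C57Bl/6 mice aged 6 to 8 weeks were kept for 35 days with OP9-DL1 cells, a mouse stromal line that carries the Notch ligand Delta-like 1, with Flt3 at 5 ng/ml and IL7 at 1 ng/ml. The cells they were set against came straight from thymi of C57Bl/6 mice aged 4 to 5 weeks. Both kinds were sorted as CD8+ cells with high T cell receptor beta, and neither was treated. There were 2 preps of each kind, and 4 two-colour arrays paired every in vitro-derived prep (always in Cy5) with every thymic prep (always in Cy3), so the dye and the origin of the cells cannot be told apart. The labels do not say how many mice gave each prep.

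Type I interferons bind the receptor made of Ifnar1 and Ifnar2, whose kinases Jak1 and Tyk2 pass the signal on to a complex that holds Stat2 and Irf9. This complex binds the interferon-stimulated response element (ISRE) in front of the genes that interferon switches on. The products of these genes sense foreign nucleic acid, block steps of virus growth, or tag proteins with the ubiquitin-like Isg15. In the mouse thymus, medullary epithelial cells are known to make type I interferon, and interferon-stimulated genes are known to be active in thymocytes late in their maturation.

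The sequences in front of 6 of the genes are shown because these 6 differed most between the groups among the genes with an entry in the RefSeq promoter table (assembly GRCm38.p6). Each line holds the 250 bases before the annotated start, 5′ to 3′ on the strand of the gene. Capitals mark matches to the ISRE core GAAANNGAAA on either strand; a match on the opposite strand appears as its complement, read backwards.
Ifit1 chr19:34640639-34640888 (plus strand): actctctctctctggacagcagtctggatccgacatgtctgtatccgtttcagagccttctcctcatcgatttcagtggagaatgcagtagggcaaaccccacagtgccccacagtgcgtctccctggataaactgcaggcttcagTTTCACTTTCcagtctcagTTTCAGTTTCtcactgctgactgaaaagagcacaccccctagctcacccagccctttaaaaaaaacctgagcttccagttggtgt
Samhd1 chr2:157135097-157135346 (minus strand): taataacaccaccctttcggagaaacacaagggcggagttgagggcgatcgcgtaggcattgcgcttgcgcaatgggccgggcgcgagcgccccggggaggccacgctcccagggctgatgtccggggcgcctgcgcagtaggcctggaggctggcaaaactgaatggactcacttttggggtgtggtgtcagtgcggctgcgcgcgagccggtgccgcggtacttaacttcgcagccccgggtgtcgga
Ifi44 chr3:151749911-151750160 (minus strand): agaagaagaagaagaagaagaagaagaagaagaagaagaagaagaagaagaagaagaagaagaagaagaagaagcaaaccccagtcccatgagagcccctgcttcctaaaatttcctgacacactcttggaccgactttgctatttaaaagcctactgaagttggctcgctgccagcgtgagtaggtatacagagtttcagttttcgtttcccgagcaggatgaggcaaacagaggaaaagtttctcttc
Ifit3 chr19:34583279-34583528 (plus strand): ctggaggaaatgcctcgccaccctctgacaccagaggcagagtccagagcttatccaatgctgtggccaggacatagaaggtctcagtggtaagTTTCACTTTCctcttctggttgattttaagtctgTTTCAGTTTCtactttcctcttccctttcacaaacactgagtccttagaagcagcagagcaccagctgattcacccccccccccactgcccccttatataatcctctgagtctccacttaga
Phf11a chr14:59297523-59297772 (minus strand): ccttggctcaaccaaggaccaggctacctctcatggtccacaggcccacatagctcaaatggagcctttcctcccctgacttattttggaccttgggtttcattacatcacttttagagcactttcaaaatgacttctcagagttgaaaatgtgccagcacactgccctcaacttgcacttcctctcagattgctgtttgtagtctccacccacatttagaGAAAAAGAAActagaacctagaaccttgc
Isg15 chr4:156200819-156201068 (minus strand): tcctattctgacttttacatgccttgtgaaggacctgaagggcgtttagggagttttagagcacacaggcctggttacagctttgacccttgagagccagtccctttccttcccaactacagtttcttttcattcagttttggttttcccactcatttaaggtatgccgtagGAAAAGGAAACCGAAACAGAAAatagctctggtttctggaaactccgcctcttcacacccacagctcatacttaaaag
Ifit1 and Ifit3 each held 2 matches with the same letters, GAAAGTGAAA and GAAACTGAAA, read on the opposite strand. In Ifit1 these lay 104 to 95 and 85 to 76 bases before the start. In Isg15, whose 3 matches overlap each other, they lay between 78 and 57 bases before it. Samhd1 and Ifi44 had no match to these letters in this window. Of the 41 genes 30 had an entry, and 11 of the 30 (36.7%) held the ISRE core, against 978 of all 32851 windows of this length (2.98%) and 936 of 27025 genes (3.46%). The 11 were Ifit1, Ifit3, Rsad2, Bst2, Ifitm2, Phf11, Lgals9, Ifi205, Ifi203, Isg15 and Trim30. Trim30 was read through its current symbol Trim30a, and Phf11 through Phf11a. The core TTCNNNGAA of the gamma-activated site, read on both strands, was found in 5 of the 30 genes (Samhd1, Isg20, Bst2, Ifit2 and Eif2ak2). It was found in 7.02% of all windows and in 2197 of 27025 genes (8.13%). In Bst2 it overlaps an ISRE match. A match is a stretch of letters, and binding was not measured.

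Of the 41 genes 35 were lower in in vitro-derived cells, 3 were higher and 3 were not called (limma, Benjamini-Hochberg adjusted p under 0.05 over all genes). Over all tested genes 25.4% were called lower and 26.7% higher. The median log2 difference, in vitro-derived minus thymic, was -1.32 over the 41 genes, and it was 0.03 over all genes. A fall of at least 2-fold was seen in 26 of the 41 genes, against 5.00% of all genes, and a fall of at least 4-fold in 12 of them, against 1.12%. Arrays are few, so their number limits the precision. Differences are given as log2 values ± the standard error of the limma fit on 2 preps a kind, and signals are background-corrected, normalized intensities in arbitrary units.

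**Figure D1:**
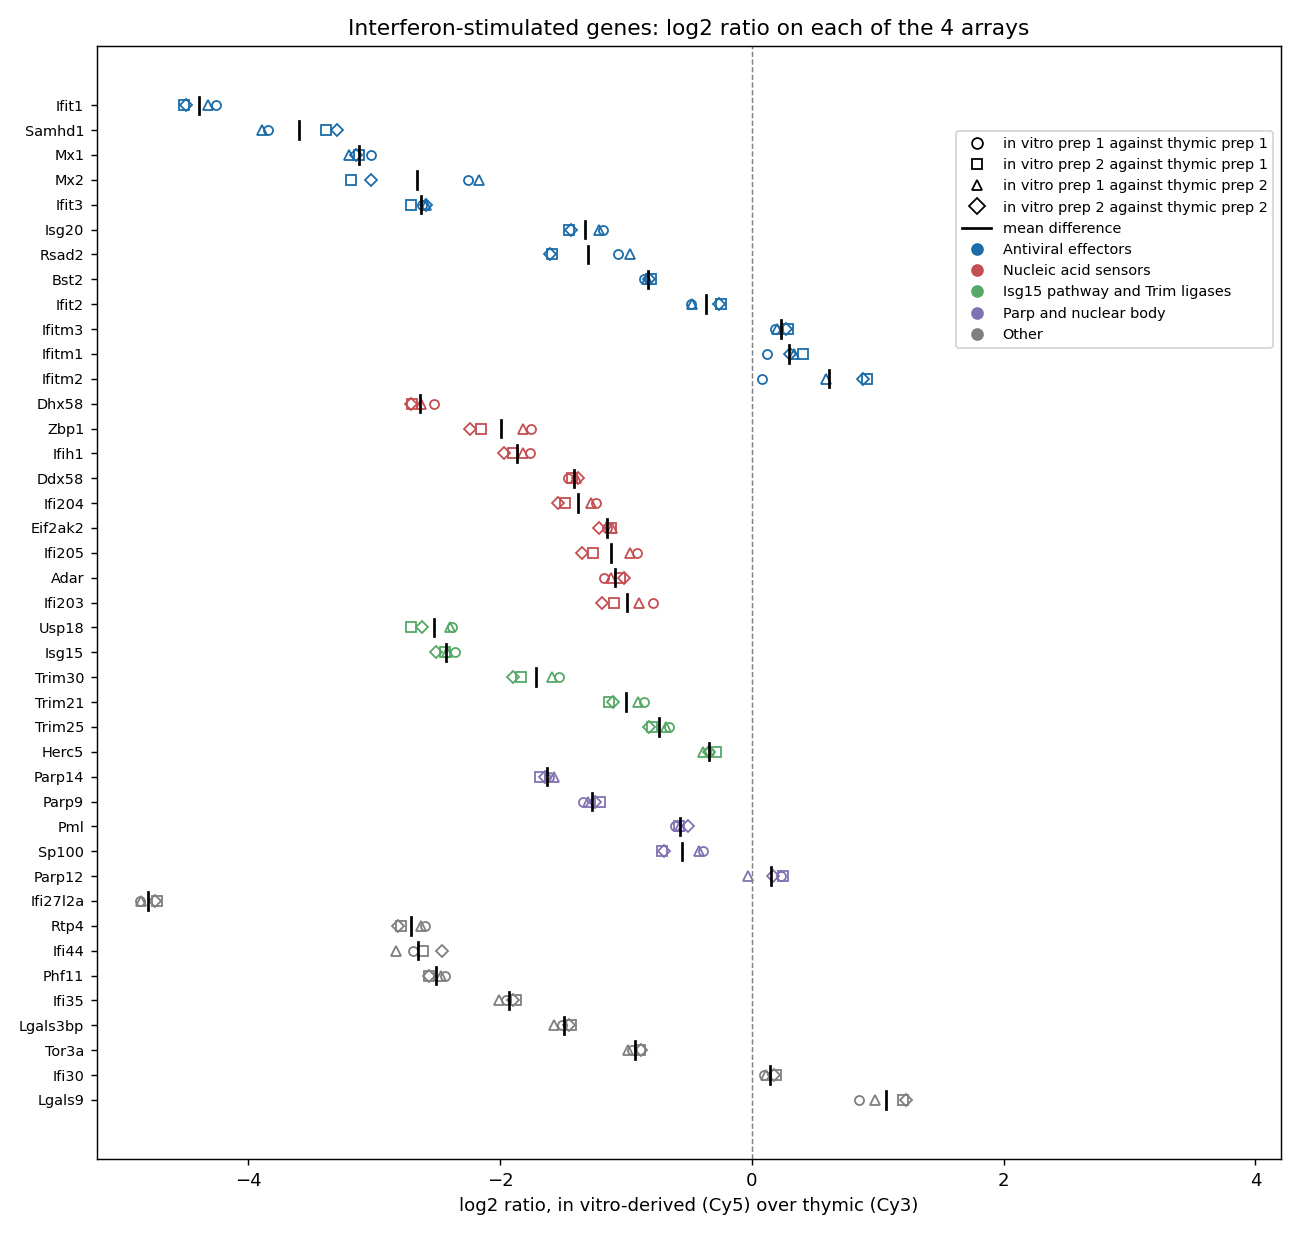
The log2 ratio of in vitro-derived (Cy5) over thymic (Cy3) signal is plotted on the horizontal axis for each of the 41 genes, with a symbol for each array and a bar at the mean difference; colours give the gene class. For 35 genes all 4 symbols lie below 0, for 5 genes all lie above 0, and the symbols of Parp12 lie on both sides.

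The sign was the same on all 4 arrays for 40 genes: 35 lay below 0 and 5 above it. Parp12 was the exception, with log2 ratios of 0.23, 0.25, -0.03 and 0.17. The signals of the 2 kinds of prep did not overlap for any of the 41 genes. Both in vitro-derived preps were below both thymic preps in 35 genes and above them in the other 6. The share of all genes without such overlap was not counted, nor that of all genes with 1 sign on all 4 arrays. The 4 arrays share 2 preps of each kind, so their signs are not independent. Both counts are therefore given without a background. The 52.1% of all genes called in either direction is a different measure. For 1 gene alone, the smallest two-sided p that an exact permutation test over 2 preps of each kind allows is 0.333, so the calls rest on the spread pooled by limma.

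How the arrays are centred sets where 0 lies. The values above come from arrays normalized within each array by loess. When each array was centred on its median instead, the median of all genes moved to 0.39, and 84.1% of all calls were then higher, against 51.3% after loess. The 41 genes then gave 27 lower, 7 higher and 7 not called, with a median of -0.60, beside 11.4% lower and 60.2% higher among all genes. Relative to the median of all genes, the median of the 41 lay at -0.99 after median centring and at -1.35 after loess, and 35 of the 41 were below the median of all genes either way. Ifit2 (0.18), Bst2 (0.13), Herc5 (0.28), Trim25 (0.16), Sp100 (0.21) and Pml (0.13) turned to the positive side of 0 with median centring, of which Herc5 was called higher, and Ifi203 (-0.16) and Ifi205 (-0.12) were not called. In 28 of the 41 genes, these 6 included, median centring moved the difference by over 1.5 times or changed its sign.

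**Figure D2:**
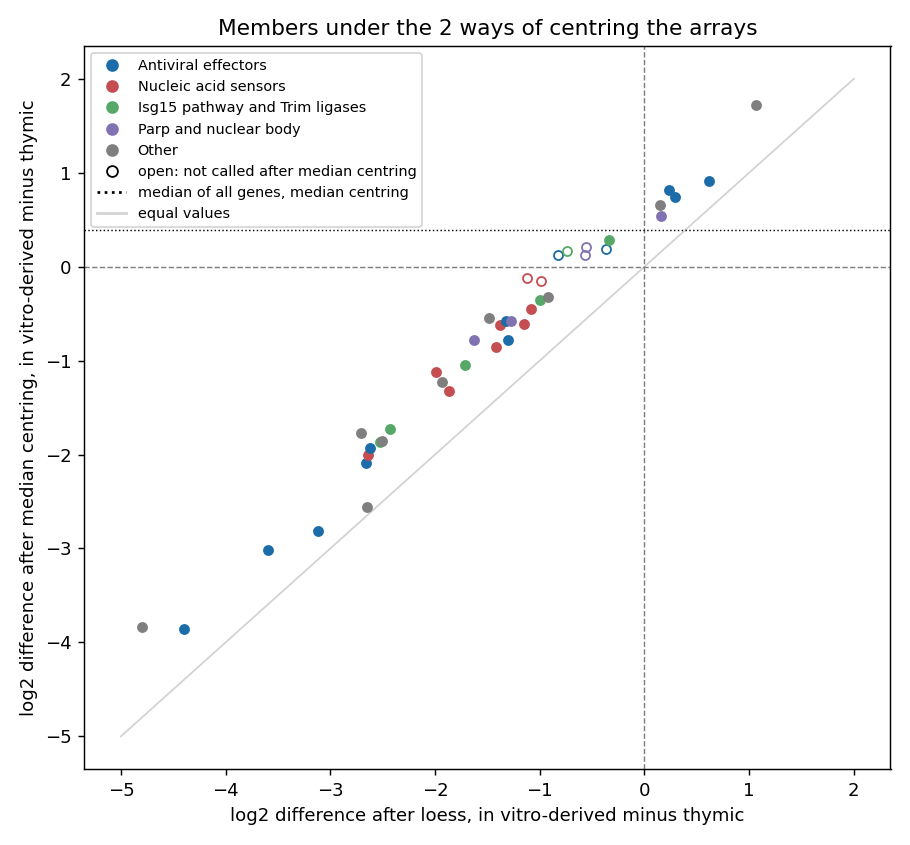
Each point is 1 of the 41 genes, with its log2 difference (in vitro-derived minus thymic) after loess on the horizontal axis and after median centring on the vertical axis; open points were not called after median centring, and the dotted line at 0.39 is the median of all genes with median centring. All 41 genes lie above the line of equal values, and 6 genes that are negative after loess are positive after median centring.

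The 12 effector genes act on viruses directly. Of these 9 were lower, Ifitm1 and Ifitm3 were higher and Ifitm2 was not called, with a median of -1.31; with median centring 7 were lower and 3 higher (median -0.68). Ifit1, which binds RNA whose cap lacks the methylation of the host's own, had signals of 201 and 175 in the in vitro-derived preps, against 3838 and 4046 in the thymic preps. It was 21.0-fold lower (-4.39 ± 0.09, limma adjusted p = 2.1e-05), with log2 ratios of -4.51 to -4.26 over the arrays, and the gene was the fifth lowest of all 19154. Its neighbours in the Ifit family, which lie with it on chromosome 19, moved by unequal amounts. Ifit3 had 1488 and 1447 in the in vitro-derived preps, against 8896 and 9204 in the thymic preps, which is 6.17-fold lower (-2.62 ± 0.06, limma adjusted p = 2.4e-05). Ifit2 had 775 and 838 in the in vitro-derived preps, against 1073 and 1004 in the thymic preps, and its difference was -0.36 ± 0.09 (limma adjusted p = 0.022). The call of Ifit2 was lost without thymic prep 1 (limma adjusted p = 0.11) and without thymic prep 2 (limma adjusted p = 0.12), besides its change of sign with median centring. Ifit3 has a near-identical copy, Ifit3b, and its probes may read both.

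Samhd1, which breaks down the nucleotides that retroviruses need, had signals of 314 and 439 in the in vitro-derived preps, against 4540.2 and 4465 in the thymic preps. The thymic preps lay close together and the in vitro-derived preps further apart, all well below them (-3.60 ± 0.17, 12.1-fold lower, limma adjusted p = 1.3e-04). Mx1 and Mx2 encode dynamin-like GTPases that trap viral particles. C57Bl/6 mice are known to carry an Mx1 allele that makes no working protein. Mx1 had 75.1 and 75.0 in the in vitro-derived preps, against 659 and 646 in the thymic preps, 8.70-fold lower (-3.12 ± 0.06, limma adjusted p = 2.1e-05). A second Mx1 probe gave -1.59 ± 0.06. The low in vitro-derived signals of Mx1 are close to the offset of 50 that was added to every value, and in Agilent's own processed signals, to which no offset was added, the difference was -5.02. Mx2 had 605 and 325 in the in vitro-derived preps, against 2909 and 2692 in the thymic preps. The first in vitro-derived prep was clearly above the second, and both were far below the thymic preps (-2.66 ± 0.29, 6.31-fold lower, limma adjusted p = 0.0013).

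Isg20, an exonuclease that degrades RNA, had 3346 and 2862 in the in vitro-derived preps, against 7701 and 7760.2 in the thymic preps, a difference of -1.32 ± 0.10 (limma adjusted p = 3.8e-04). Rsad2, which encodes viperin, an enzyme that makes a chain-terminating nucleotide, had 557 and 384 in the in vitro-derived preps, against 1151 and 1132 in the thymic preps. Its 2 in vitro-derived preps differed by 0.58 on the log2 scale, and the mean difference was -1.30 ± 0.19 (limma adjusted p = 0.0038). Bst2, or tetherin, which holds budding viruses at the cell surface, had 12776 and 12868 in the in vitro-derived preps, against 22795 and 22679 in the thymic preps. This is 1.77-fold lower (-0.83 ± 0.06, limma adjusted p = 3.1e-04), a small but very even difference over the arrays (-0.86 to -0.80), which changed sign with median centring.

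The Ifitm genes, which lie together on chromosome 7 and whose proteins hinder the entry of viruses through membranes, had differences above 0. Ifitm1 had 484 and 493 in the in vitro-derived preps, against 399 and 398 in the thymic preps (0.29 ± 0.07, limma adjusted p = 0.020). Ifitm3 had 1193 and 1342 in the in vitro-derived preps, against 1088 and 1061 in the thymic preps (0.24 ± 0.06, limma adjusted p = 0.026). Ifitm2 had 252 and 293 in the in vitro-derived preps, against 214 and 146 in the thymic preps, and its difference of 0.62 ± 0.20 was not called (limma adjusted p = 0.052). The 3 differences amount to 1.23-fold, 1.18-fold and 1.53-fold, and the calls depended on the settings: that of Ifitm1 was lost in 10 of 20 alternative settings and that of Ifitm3 in 8, and Ifitm2 was called higher in 8 of 20. The values of all 3 stayed above 0 in every one of the 20 settings. Some settings nearly repeat each other, so these counts are not of independent checks. Ifitm1 was at 0.287 with processed signals and with the deposited ratios. It was at 0.235 with normexp fitted on all spots and with marked spots kept. Without in vitro prep 2 the difference of Ifitm2 was 0.33. The members of this family are similar in sequence, and probes may read more than 1 of them.

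**Figure D3:**
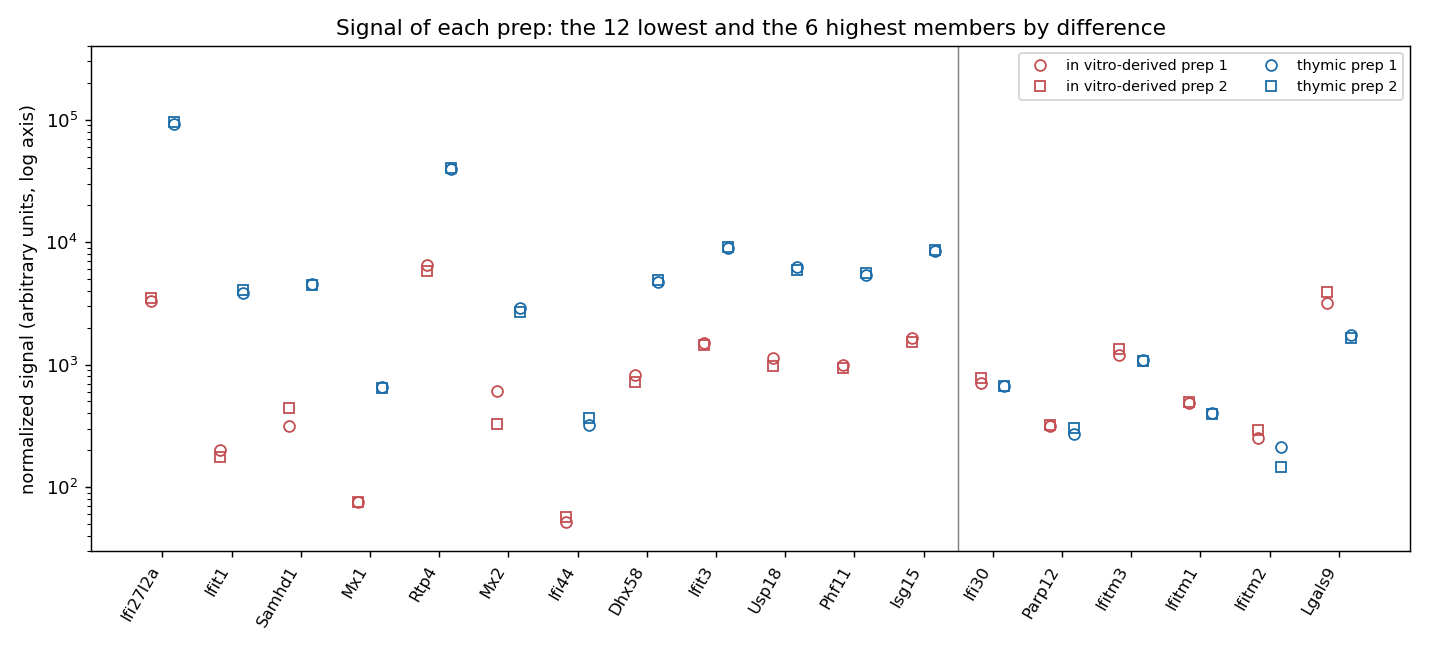
Normalized signal in arbitrary units, on a log axis, of each in vitro-derived prep (red, left of each pair) and each thymic prep (blue, right of each pair) for the 12 genes with the lowest and the 6 genes with the highest log2 difference. In the 12 genes on the left the in vitro-derived preps lie far below the thymic preps, and in the 6 on the right they lie slightly above them.

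All 9 genes of nucleic acid sensing were lower, with a median of -1.38 and differences between -2.64 and -0.99, and 7 of them were lower with median centring (median -0.62). Dhx58, which encodes LGP2, a helicase that tunes the response to viral RNA, had 822 and 725 in the in vitro-derived preps, against 4694 and 4917 in the thymic preps. It was 6.22-fold lower (-2.64 ± 0.07, limma adjusted p = 3.1e-05), and the ratios stayed within -2.71 to -2.52. The other helicase genes of the class had smaller differences. Ifih1, which encodes MDA5 and senses long double-stranded RNA, had 465 and 424 in the in vitro-derived preps, against 1577 and 1651 in the thymic preps (-1.86 ± 0.07, limma adjusted p = 7.4e-05). Ddx58, which encodes RIG-I and senses the ends of viral RNA, had 659 and 642 in the in vitro-derived preps, against 1783 and 1686 in the thymic preps (-1.41 ± 0.06, limma adjusted p = 8.3e-05). Zbp1, a sensor of left-handed nucleic acid that can start necroptosis, had 6244 and 4835 in the in vitro-derived preps, against 21396 and 22219 in the thymic preps, 3.97-fold lower (-1.99 ± 0.14, limma adjusted p = 3.6e-04).

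Eif2ak2, the kinase PKR that halts translation on double-stranded RNA, had 591 and 578 in the in vitro-derived preps, against 1256 and 1329.9 in the thymic preps (-1.15 ± 0.06, limma adjusted p = 1.3e-04). Adar, which edits adenosine in double-stranded RNA, had 1359 and 1425 in the in vitro-derived preps, against 2983 and 2929 in the thymic preps at the probe that stands for it (-1.09 ± 0.07, limma adjusted p = 2.4e-04). Its other probe gave -2.06 ± 0.08, so the size of the Adar difference depends on the probe. The PYHIN genes Ifi203, Ifi204 and Ifi205, on chromosome 1, belong to a family of DNA-binding proteins in which some members sense DNA. Ifi204 had 3909 and 3361 in the in vitro-derived preps, against 9215 and 9701 in the thymic preps (-1.38 ± 0.10, limma adjusted p = 3.5e-04). Ifi205 had 16669.8 and 12662 in the in vitro-derived preps, against 31295 and 31835 in the thymic preps (-1.12 ± 0.13, limma adjusted p = 0.0017), and Ifi203 had 7193 and 5758 in the in vitro-derived preps, against 12456 and 13101 in the thymic preps (-0.99 ± 0.11, limma adjusted p = 0.0017). All 3 were higher in the first in vitro-derived prep than in the second, and they are similar in sequence, so probes of 1 may also read another.

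All 6 genes of the Isg15 pathway and the Trim ligases were lower (median -1.36), against 4 lower and 1 higher with median centring (median -0.70). Isg15, the ubiquitin-like protein that is attached to other proteins, had 1642 and 1538 in the in vitro-derived preps, against 8469 and 8651 in the thymic preps, and was 5.39-fold lower (-2.43 ± 0.06, limma adjusted p = 3.0e-05). Usp18, the protease that removes Isg15 and damps signalling at the interferon receptor, had a difference close to that of Isg15, with signals of 1140.2 and 976 in the in vitro-derived preps, against 6210.3 and 5937 in the thymic preps (-2.53 ± 0.10, limma adjusted p = 8.0e-05). Trim30 of the mouse, a regulator of NF-kappaB signalling, had 1681 and 1323 in the in vitro-derived preps, against 4761 and 5019 in the thymic preps (-1.71 ± 0.11, limma adjusted p = 2.8e-04), with close relatives in the same cluster on chromosome 7. Trim21, which recognises antibody-bound virus in the cytosol, had 1779 and 1534 in the in vitro-derived preps, against 3284 and 3319 in the thymic preps (log2 ratios of -1.13 to -0.85 over the arrays, limma adjusted p = 8.2e-04).

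Trim25, a ubiquitin ligase that acts on RIG-I, had 10340.0 and 9721 in the in vitro-derived preps, against 16825 and 16577 in the thymic preps (-0.74 ± 0.07, limma adjusted p = 8.8e-04). A second Trim25 probe gave -1.68 ± 0.07. The gene named Herc5 on the array, a synonym of Herc6 in RefSeq, is of the family that attaches Isg15. It had 1610.1 and 1512 in the in vitro-derived preps, against 1931 and 2008 in the thymic preps, a difference of only -0.34 ± 0.06 (limma adjusted p = 0.0072). The call of Herc5 was lost without thymic prep 1 (limma adjusted p = 0.076) and without thymic prep 2 (limma adjusted p = 0.11), and another probe of it gave -1.15 ± 0.09.

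Of the 5 genes for ADP-ribose transfer and nuclear bodies 4 were lower and Parp12 was not called (median -0.57, and 0.13 with 2 lower after median centring). Parp14, an ADP-ribosyltransferase, had 5629 and 5476 in the in vitro-derived preps, against 17331 and 16967 in the thymic preps (-1.63 ± 0.06, 3.09-fold lower, limma adjusted p = 6.3e-05). Parp9, its relative on the same chromosome 16, had 2272 and 2348 in the in vitro-derived preps, against 5574 and 5582 in the thymic preps (-1.27 ± 0.06, limma adjusted p = 1.3e-04). Parp12 had 318 and 319 in the in vitro-derived preps, against 269 and 304 in the thymic preps, and the difference of 0.16 ± 0.08 did not pass (limma adjusted p = 0.19). Pml, the scaffold of the nuclear bodies, had 2836 and 2943 in the in vitro-derived preps, against 4376 and 4179 in the thymic preps (-0.57 ± 0.06, limma adjusted p = 0.0012). Sp100, another component of these bodies, had 5498 and 4616 in the in vitro-derived preps, against 7542 and 7269.9 in the thymic preps (-0.56 ± 0.11, limma adjusted p = 0.010), and its call was lost without thymic prep 2 (limma adjusted p = 0.058).

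Among the 9 genes of other or less defined function 7 were lower, Lgals9 was higher and Ifi30 was not called (median -1.93); with median centring 7 were lower and 2 higher (median -1.22). Ifi27l2a, one of the genes most strongly switched on by type I interferon, had 3295 and 3490.3 in the in vitro-derived preps, against 93027 and 95092 in the thymic preps. This is 27.7-fold lower (-4.79 ± 0.07, limma adjusted p = 1.8e-05), the lowest of all 19154 genes, with ratios of -4.86 to -4.72. Rtp4, a chaperone of membrane receptors, was bright in both kinds of cell and still differed 6.51-fold, with 6503 and 5774 in the in vitro-derived preps, against 39699 and 40121 in the thymic preps (-2.70 ± 0.08, limma adjusted p = 4.0e-05).

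Ifi44 had 52.0 and 57.4 in the in vitro-derived preps, against 321 and 364 in the thymic preps. On none of the 4 arrays was its in vitro-derived signal well above background, the only such case among the 41 genes, so the difference is a bound: it was at least 4.91-fold lower, with a fitted difference of -2.65 ± 0.09 (limma adjusted p = 5.0e-05) that reached -6.38 in Agilent's processed signals. Phf11, a protein with a PHD zinc finger, had 997 and 937 in the in vitro-derived preps, against 5428 and 5566 in the thymic preps (-2.51 ± 0.07, limma adjusted p = 2.9e-05). Ifi35, a partner of the interferon-induced protein Nmi, had 1927 and 2069 in the in vitro-derived preps, against 7386 and 7845 in the thymic preps (-1.93 ± 0.06, limma adjusted p = 4.8e-05).

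Lgals3bp, a secreted glycoprotein that binds galectins, had 8944 and 10096 in the in vitro-derived preps, against 26583 and 26729 in the thymic preps (-1.49 ± 0.06, limma adjusted p = 9.0e-05). Tor3a, an ATPase of the endoplasmic reticulum, had 1115 and 1167 in the in vitro-derived preps, against 2159.7 and 2171 in the thymic preps (-0.92 ± 0.06, limma adjusted p = 2.9e-04). Ifi30, the lysosomal thiol reductase that helps to unfold antigens, had 713 and 771 in the in vitro-derived preps, against 668 and 674 in the thymic preps, and the difference of 0.15 ± 0.06 was not called (limma adjusted p = 0.10). Lgals9 encodes galectin-9, a ligand of the inhibitory receptor Tim-3, and was the only one of the 41 genes at least 2-fold higher. It had 3198 and 3939 in the in vitro-derived preps, against 1731 and 1661 in the thymic preps, 2.09-fold higher (1.07 ± 0.11, limma adjusted p = 0.0012), and it was called higher in all 20 alternative settings.

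Of the 74 probes 70 could be tested; 62 were called lower, 5 higher and 3 were not called, against 25.6% of all probes called lower and 26.6% higher. In 21 genes at least 2 probes were tested. In 20 of these, all tested probes were called in 1 direction, and in none were probes called in opposite directions. The share of all genes with such agreement was not counted. Ifi203 was the other gene, with 1 of its 3 probes at -0.18 ± 0.10 and not called (limma adjusted p = 0.17 over all probes). Probes of 1 gene still gave different sizes: for Adar they were -2.06 ± 0.08 and -1.09 ± 0.07, and for Ifi27l2a they ran from -4.79 to -3.61. For Mx1 they were -3.12 and -1.59, for Ifih1 -1.86 and -0.88, and for Tor3a -0.92 and -0.36. Those of Parp14 ran from -1.63 to -0.59, and those of Ddx58 from -1.52 to -0.83. Those of Sp100 ran from -1.03 to -0.56, and the probe at -0.56 is the one that stands for the gene. The second probe of Samhd1 and both probes of Ifi44 were not well above background in in vitro-derived cells on any of the 4 arrays, so they give bounds only: the second Samhd1 probe was at least 2.36-fold lower, and the second Ifi44 probe at least 2.81-fold lower. These probes, and the second probes of Mx1 and Ifih1, entered the test through the thymic channel alone, which favours a lower call. Both Ifitm2 probes were called higher when each probe was tested (0.62 and 0.29, limma adjusted p = 0.049 and 0.027).

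**Figure D4:**
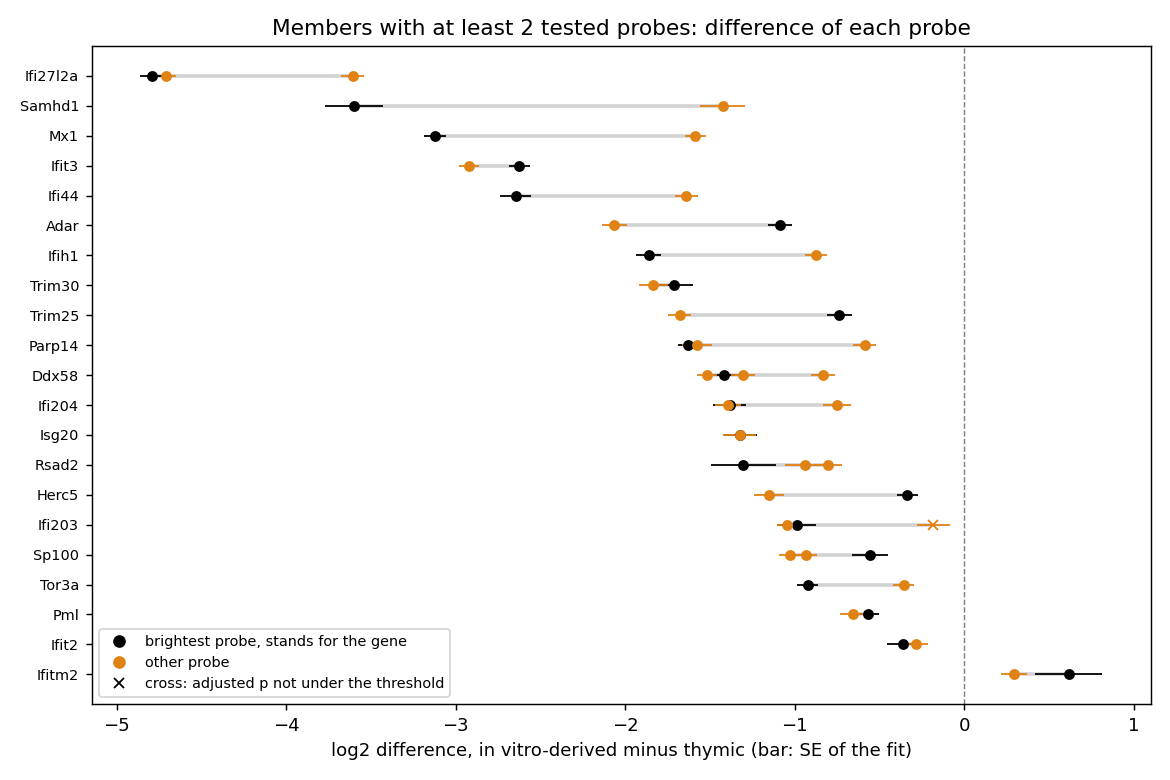
The log2 difference (in vitro-derived minus thymic) of each tested probe, with the standard error of the fit as a bar, for the 21 genes with at least 2 tested probes; black marks the brightest probe, which stands for the gene, and a cross a probe that was not called. In 20 genes every probe lies below 0, and both probes of Ifitm2 lie above it; both points of Ifi44 and the point of Samhd1 nearer to 0 are fitted values of probes that give bounds only.

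Gaps between preps of 1 kind were taken from the ratios within arrays, while the signals above compare 1 channel across arrays. For 40 of the 41 genes the 2 ways gave gaps within 0.2 of each other on the log2 scale. Ifitm2 was the exception: its signals gave a gap (prep 1 minus prep 2) of -0.22 in in vitro-derived cells and 0.55 in thymic cells, against -0.56 and 0.24 from the ratios, so which kind of cell holds its wider gap depends on the measure.

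By the ratios, the 2 in vitro-derived preps resembled each other less than the 2 thymic preps did. Over all genes the difference between prep 1 and prep 2 had an SD of 0.196 for in vitro-derived cells and 0.106 for thymic cells. Over the 41 genes the median absolute difference between preps was 0.130 for in vitro-derived cells and 0.039 for thymic cells. Prep 1 was the higher one in 22 of the 41 genes in in vitro-derived cells and in 17 in thymic cells.

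Single genes stood apart between the in vitro-derived preps. Mx2 was higher in prep 1 than in prep 2 by 0.89 on the log2 scale, and only 0.27% of all genes had a larger gap between these preps. Rsad2 was higher by 0.58 (1.49% of genes had a larger gap) and Zbp1 by 0.41 (4.63%). Samhd1 (-0.53, 2.05%) was lower in prep 1, as was Ifitm2 by its ratios (-0.56, 1.66%). Between the thymic preps the differences taken from the ratios lay between -0.17 (Parp12) and 0.24 (Ifitm2).

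**Figure D5:**
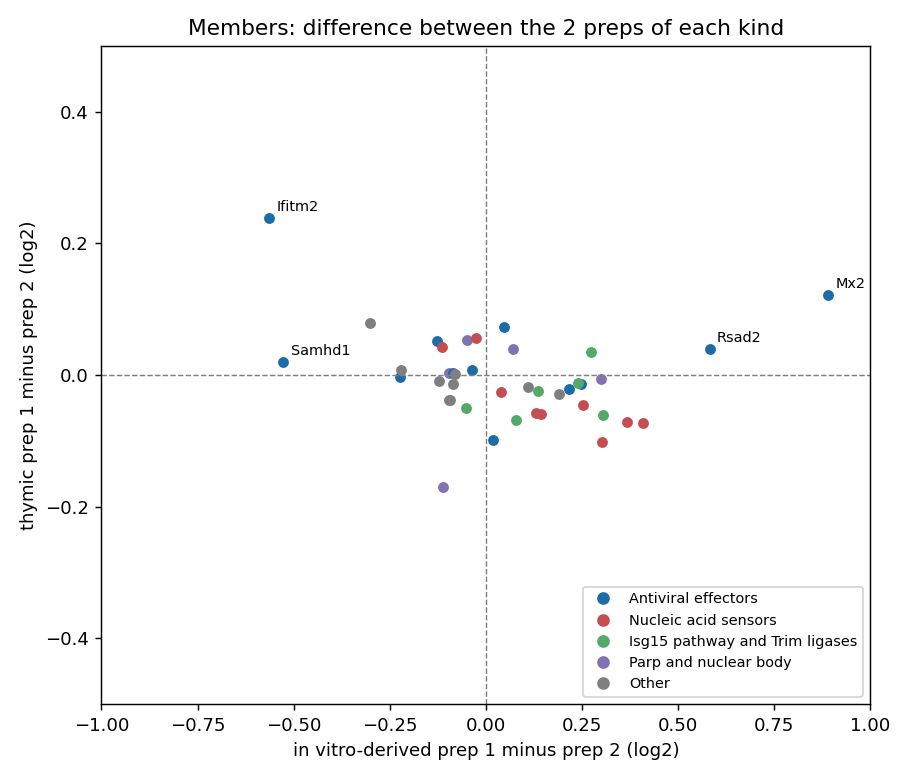
Each point is 1 of the 41 genes, coloured by class, with the log2 difference, taken from the ratios, between in vitro-derived prep 1 and prep 2 on the horizontal axis and that between thymic prep 1 and prep 2 on the vertical axis; the 4 genes farthest from 0 are named. The points spread from -0.56 to 0.89 along the horizontal axis and from -0.17 to 0.24 along the vertical axis.

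The genes that carry the interferon signal were read from lists made for this purpose. Of 11 tested receptor chains and transducers 9 were lower and 1 higher (median -0.89, 25.4% of all genes lower), and with median centring 5 were lower and 4 higher (median -0.22). Irf9, a part of the complex that binds the ISRE, had 2248 and 2249 in the in vitro-derived preps, against 7082 and 7217 in the thymic preps (-1.67 ± 0.06, limma adjusted p = 5.3e-05). Stat2, which belongs to the same complex, was at -0.95 ± 0.10, and the receptor kinases Jak1 and Tyk2 were at -1.29 ± 0.11 and -0.79 ± 0.08. Of the receptor chains, Ifnar1 was at -0.44 ± 0.07, and Ifnar2 at 0.12 ± 0.09 was not called (limma adjusted p = 0.34). Ifngr1, a chain of the interferon gamma receptor, was the exception, with 91269 and 111491 in the in vitro-derived preps, against 11684 and 11855 in the thymic preps (3.10 ± 0.17, 8.57-fold higher, limma adjusted p = 1.9e-04), while its partner Ifngr2 was lower (-0.89 ± 0.13). With median centring Ifnar1 turned to 0.27 and was called higher, as was Ifnar2 (0.84), and Tyk2 (-0.16) and Ifngr2 (-0.22) were not called. The median of all genes was then 0.39, with 11.4% of all genes called lower and 60.2% higher. Ifnar1 lay below the median of all genes with either centring.

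Among 20 tested regulators 11 were lower and 5 higher (median -0.28), against 4 lower and 12 higher with median centring (median 0.42). Over all genes 25.4% were lower and 26.7% higher after loess (median 0.03). With median centring 11.4% of all genes were lower and 60.2% higher (median 0.39), so the regulators then lay near all genes. Tlr7, a receptor for single-stranded RNA, had 134 and 156 in the in vitro-derived preps, against 1282 and 1381 in the thymic preps (-3.20 ± 0.09, limma adjusted p = 3.6e-05). Irf7, which drives interferon alpha transcription, had 437 and 439 in the in vitro-derived preps, against 2479 and 2506 in the thymic preps (-2.51 ± 0.06, limma adjusted p = 2.2e-05), and the kinase Ikbke lay at -1.28 ± 0.08. Socs1, an inhibitor of Jak kinases, was the regulator with the largest increase (0.86 ± 0.19, limma adjusted p = 0.014). All 7 tested Oas genes, whose products make the messenger that activates RNase L, were lower (median -1.20, and all 7 also with median centring), led by Oas2 (-4.00 ± 0.10) and Oasl2 (-3.38 ± 0.07). Of 14 tested interferon-inducible GTPases 12 were lower (median -1.20), led by Tgtp1 (-2.32 ± 0.10) and Iigp1 (-1.97 ± 0.09), and Gbp3 was higher (0.31 ± 0.06); with median centring 8 were lower and 2 higher.

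Of 15 ligands listed 7 were tested, and Ifng, a cytokine of T cells themselves, was the only one lower, with 255 and 239 in the in vitro-derived preps, against 1140.4 and 697 in the thymic preps (-1.85 ± 0.24, limma adjusted p = 0.0025). Ifnz was slightly higher (0.21 ± 0.06, limma adjusted p = 0.030), and Ifna1, Ifna9, Ifna12, Ifnab and Ifnl3 were not called. With median centring 3 of the 7 were higher, beside 60.2% of all genes. No array showed the probes of Ifnb1, Ifna2, Ifna4, Ifna11, Ifne or Ifnk well above background, in either channel.

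The sorted cells carried T cell markers in both groups: all 10 CD8 T cell markers were well above background on every array in both channels. Of these 6 were lower and 2 higher, against 0 lower and 8 higher with median centring. Over all genes 25.4% were lower and 26.7% higher after loess, and 11.4% and 60.2% with median centring. The summed signal of the 10 markers was 526013 and 453863 in in vitro-derived preps, against 568360 and 566454 in thymic preps. Cd8a, which encodes a chain of the CD8 co-receptor, had 45085 and 37311 in the in vitro-derived preps, against 68963 and 69696 in the thymic preps (-0.76 ± 0.10). Stromal transcripts moved with the groups. All 8 tested stromal markers of 11 were higher in in vitro-derived preps (median 2.34), and their summed signal was 10169 and 12808 in the in vitro-derived preps, against 1299 and 1230 in the thymic preps. The largest were Pdgfrb (4.69 ± 0.06) and Col1a1 (3.71 ± 0.09), while no array showed Pdgfra well above background in either channel. Since these are sorted bulk cells, fewer cells of a type and less RNA per cell cannot be told apart, and the part of stromal RNA in the results on the 41 genes was not tested.

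Markers of interferon-producing and other cells were read in the same way. Of 7 markers of plasmacytoid dendritic cells 5 were tested, and no array showed Siglech or Clec10a well above background in either channel. Pacsin1 was lower (-4.39 ± 0.06), and Tcf4 (1.94 ± 0.07), Ccr9 (0.76 ± 0.08) and Cox6a2 (3.75 ± 0.40) were higher, with summed signals of 46805 and 53084 in in vitro-derived preps, against 38262 and 38618 in thymic preps. The in vitro-derived preps of Cox6a2 differed widely, by -2.56 (prep 1 minus prep 2, log2) in their signals and by -1.25 in the ratios. Of 11 tested macrophage and dendritic cell markers of 14, 4 were lower and 2 higher (summed signal 1723 and 1677 in in vitro-derived preps, against 1919 and 1913 in thymic preps), with Lyz2 at -1.53 ± 0.22 and Fcgr1 and Mrc1 not well above background anywhere. Of 7 B cell markers 1 was lower and 1 higher (summed signal 3418 and 3044 in in vitro-derived preps, against 3724 and 3717 in thymic preps).

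Of 6 tested NK cell markers of 8, 3 were lower and 2 higher (summed signal 2378 and 4836 in in vitro-derived preps, against 14545 and 15174 in thymic preps), and Klrd1 made up most of it (-2.73 ± 0.40). No array showed Ncr1, which marks NK cells, well above background. Of 9 tested markers of thymic epithelium, 2 were lower and 1 higher (summed signal 1476 and 1519 in in vitro-derived preps, against 1519 and 1528 in thymic preps). The part of these cell types in the results on the 41 genes was not tested.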

How the data were processed

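RNA of 2 in vitro-derived and 2 thymic preps was measured on 4 Agilent two-colour arrays. The scanner intensities were deposited by the authors; per the file headers, the software was Agilent Feature Extraction, version 9.5.1.1. The deposited log10 ratios of a value table (red over green, per the file headers and a match to the scanner values with a correlation of at least 0.9999) served as an alternative; their median is 0 on each array, and whether they were centred further is unknown. No label or header names the genome build of the probes.

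From the deposited intensities log2 values were computed here. The mean signals were corrected by normexp with an offset of 50 on the median local background, after spots that the scanner software marked as outliers were left out, and were normalized within each array by loess, with control spots at weight 0 (R 4.3.3, limma 3.58.1). Probes were tested if Cy5, Cy3 or both were well above background on every array, which left 27224 of 41174 probes. The brightest probe stood for a gene, giving 19154 genes. The 4 ratios of a gene were turned into 4 prep values, and lmFit and eBayes with Benjamini-Hochberg adjustment over all genes gave two-sided p-values on 2 residual degrees of freedom. Signals of single preps also passed quantile normalization of the mean level between arrays (Aquantile), and compare 1 channel across arrays. Gaps between preps can therefore differ from those taken from the ratios, by up to 0.35 for the 41 genes (Ifitm2). The fit on prep values was tested on simulated log ratios, and the steps before the fit were not tested in this way.

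Between 66.5% and 70.9% of spots were well above background in Cy5 and between 63.7% and 65.6% in Cy3. The scanner software marked 196 to 262 spots an array and called 1 saturated, and none of these belonged to the 41 genes. All 4 arrays came from 1 slide and 1 scan, so no batch could be tested. The p-values measure only the spread between these preps.

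The 41 genes and the lists were chosen with earlier results of these data known, so the lists get counts and medians and no test. The array's own names were used; 2 of the 41 genes carried an earlier symbol, and 54 of the 74 probes matched RefSeq by accession. All 41 genes are named, and from each other list up to 4 called genes of largest difference, of which 1 is not reported here; Stat2, Tyk2, Ifnar1, Ifngr2, Socs1, Gbp3 and Cd8a were named beyond that, after their values were seen. Promoters come from RefSeq (GRCm38.p6); protein sequences were not used here. Alternatives covered centring, background correction, marked spots, the filter, the choice of probe, the deposited ratios, the prep number as a block, and leaving out each array or prep.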

Additional observations from a re-analysis of the deposited data

How the results depend on the processing

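Over 20 alternative settings, the number of the 41 genes called lower was 35 in all but 4: median centring gave 27, the filter on both channels 34 (Ifi44 was then untested), and leaving out thymic prep 1 or 2 gave 33 or 32. Genes of the set called higher numbered 3; they were 7 with median centring, and Lgals9 was the 1 left with Agilent's processed signals, the deposited ratios, normexp fitted on every spot, marked spots retained, or either prep 2 left out. Leaving out single arrays or preps gave 1 to 4 genes called higher, 32 to 35 called lower and a median between -1.44 (without in vitro prep 1) and -1.26. The median of the 41 was -1.49 with processed signals and -0.60 with median centring. Over all genes median centring gave a median of 0.39, with 11.4% called lower and 60.2% higher. With median centring Ifit2 (0.18), Bst2 (0.13), Herc5 (0.28), Trim25 (0.16), Sp100 (0.21) and Pml (0.13) changed sign, the class of ADP-ribose transfer and nuclear bodies kept 2 calls and had a median of 0.13, the regulators had a median of 0.42, and the other genes of the pathway gave 25 lower and 21 higher, against 40 and 8 after loess. That pathway count of higher genes was 5 with normexp on all spots and with marked spots kept, and 3 to 10 (40 lower became 35 to 38) when an array or a prep was left out. The median of all genes was -0.0012 with processed signals and -0.0010 with the deposited ratios, and that of the ligands -4.4e-04 as a mean over probes. Among all genes 9975 were called; median centring gave 13716, and leaving out arrays or preps 5800 to 9995, with 6067 without thymic prep 1 and 5800 without thymic prep 2, where an arm has 1 prep that is assumed to vary like the other. Except for Ifi44 with the filter on both channels, the cause of these shifts was not tested.

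The preps share only a number: their prep differences correlated at 0.13 over genes, with 2 pairs. With the prep number as a replicate block 10275 genes were called, and the 41 gave 35 lower and 4 higher. The block changed the call of Ifitm2 among the 41 genes and of no other. Signals near background, as for Ifi44 and Mx1, set the limit: their differences were -6.38 and -5.02 with processed signals. One slide, no dye swap and 2 preps a kind limit every value, and probes of near-identical genes (Ifitm, PYHIN, Trim30, Ifit3) cannot separate them.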
